A study of Mus musculus with 27 samples.

Results

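The genes followed here are 8 genes that mark perivascular macrophages, chosen by name as Mrc1, Cd163, Lyve1, Pf4, Ms4a7, Cbr2, F13a1 and Folr2, out of 40129 genes in the deposited mouse table. All 8 symbols were in the table. They were measured by RNA sequencing of whole retina from wild-type (WT) C57BL/6 mice (C57BL/6J in the study's methods) in oxygen-induced retinopathy (OIR), a model in which pups kept in high oxygen and returned to room air lose retinal vessels and then grow abnormal ones. OIR mice were sampled at postnatal day 14 (p14, 6 mice) and at p17 (8 mice), and untreated controls of the same ages kept in room air throughout (nOIR) at p14 (6 mice) and p17 (6 mice). All mice were perfused with buffered saline through the heart, and a library held the retina of 1 eye or of both eyes of a mouse. The purpose of the groups was to separate the ischemic stage at p14 from the stage with new vessels at p17. A further nOIR p14 mouse, S4, was left out of the tests as in the study's methods, which call it an outlier contaminated with lens genes (Cryaa and Cryba1). OIR pups outside a set weight range had been excluded by the authors. The mice of a group came from a few litters, but which mouse came from which litter was not known, so the tests take mice as independent.

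Perivascular macrophages are long-lived phagocytes that sit along blood vessels, in the space between the vessel wall and the tissue, and take up debris, proteins and iron carriers from the vessel side. With the macrophages of the meninges they form the border-associated macrophages of the nervous system, which share most of their genes with microglia but are set apart by scavenger receptors such as Mrc1 and Cd163 and by Pf4, Ms4a7, F13a1, Cbr2, Folr2 and, in some of them, Lyve1. None of these genes is exclusive to the cells: Pf4 and F13a1 are also made by platelets and their precursors, Lyve1 also by lymphatic endothelium, and Mrc1 by some endothelial cells and by other macrophages.

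Between 17029536 and 33593428 reads were recovered per mouse (median 30024568). The tissue label was checked on 12 genes of retinal neurons and glia, whose summed normalized reads ranged from 1026318 to 1357635 in nOIR p17 and from 875761 to 1377743 in OIR p17 mice. A normalized read is a read divided by the size factor of its mouse. At this depth a mouse at 0 may still hold up to 3 reads by counting error alone, and at p17 each member other than Lyve1 and Ms4a7 was at 0 in 2 to 4 of the 6 control mice. PCR copies were not removed, so reads are not independent molecules. In whole retina, fewer cells of a type and less RNA per cell cannot be told apart.

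The promoters of the members called higher at p17 are shown first, 1 start site for each of the 5 genes. They are the 250 bases before the start site as given by RefSeq on build GRCm38.p6, with matches to GAGGAAG in capitals on either strand (the reverse strand reads CTTCCTC). This is a core of the site of PU.1, the myeloid transcription factor encoded by Spi1. A promoter was in the table for 7 of the 8 members, with 10 start sites in all. Mrc1 (chr2:14229164-14229413, plus strand), Pf4 (chr5:90772185-90772434, plus strand), the first start of F13a1 (chr13:37050245-37050494, minus strand), Cd163 (chr6:124304401-124304650, plus strand) and the first start of Ms4a7 (chr19:11336147-11336396, minus strand), the last 2 with no match, read as follows.
Mrc1: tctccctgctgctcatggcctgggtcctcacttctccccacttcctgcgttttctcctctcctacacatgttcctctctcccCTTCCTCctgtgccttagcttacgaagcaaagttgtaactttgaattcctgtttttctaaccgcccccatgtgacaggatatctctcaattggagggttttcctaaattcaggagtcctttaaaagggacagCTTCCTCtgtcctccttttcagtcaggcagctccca
Pf4: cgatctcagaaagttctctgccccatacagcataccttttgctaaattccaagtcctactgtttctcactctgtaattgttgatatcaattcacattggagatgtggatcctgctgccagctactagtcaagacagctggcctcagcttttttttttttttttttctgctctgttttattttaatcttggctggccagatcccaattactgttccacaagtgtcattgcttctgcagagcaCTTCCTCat
F13a1: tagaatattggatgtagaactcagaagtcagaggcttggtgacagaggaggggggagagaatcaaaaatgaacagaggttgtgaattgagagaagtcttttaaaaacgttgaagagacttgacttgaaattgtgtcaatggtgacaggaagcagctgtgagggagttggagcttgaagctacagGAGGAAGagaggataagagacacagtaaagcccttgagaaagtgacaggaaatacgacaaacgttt
Cd163: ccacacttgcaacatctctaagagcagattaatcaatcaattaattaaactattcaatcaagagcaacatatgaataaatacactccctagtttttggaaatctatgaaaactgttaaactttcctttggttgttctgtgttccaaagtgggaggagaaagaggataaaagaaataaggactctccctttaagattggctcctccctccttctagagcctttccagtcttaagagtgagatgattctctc
Ms4a7: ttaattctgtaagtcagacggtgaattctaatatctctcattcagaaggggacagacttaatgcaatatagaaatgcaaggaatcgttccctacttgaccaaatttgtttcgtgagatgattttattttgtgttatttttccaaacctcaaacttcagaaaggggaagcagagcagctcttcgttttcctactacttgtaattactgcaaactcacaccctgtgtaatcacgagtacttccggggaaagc
The GAGGAAG letters began 168 and 36 bases before the start of Mrc1, 9 bases before that of Pf4 and 66 bases before the first start of F13a1. Cbr2 held the letters 79 bases before its start, so that 4 of the 7 genes had them, while Cd163 and both starts of Ms4a7 and of Folr2 did not, nor did the second start of F13a1. Counted by start site, 4 of the 10 windows held the letters. Of 32851 mouse promoters of this length, counted in the same way, 10.61% held GAGGAAG. The core TGCTGA of Maf sites, searched on both strands like the rest, was found at both starts of Folr2 and at no other member, against 16.08% of all promoters. The hypoxia response core ACGTG, found in 16.57% of promoters, and TATAAA, found in 12.37%, were in none of the 10 windows. The searched motifs do not overlap each other in these windows, and a match describes the letters and not a bound site.

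At p17, 5 of the 8 members were higher in OIR than in nOIR retina, 1 was lower and 2 did not pass the test. Pf4, F13a1, Cd163, Mrc1 and Ms4a7 rose, and Lyve1 fell. Over the 27137 genes tested, 7.39% were called higher and 5.12% lower at an adjusted p under 0.05 (limma on log2 of normalized reads + 1, Benjamini-Hochberg over all genes). All 5 members that rose also passed the study's limit for a differentially expressed gene (DEG), a log2 fold change above 2, which 1.9% of the genes passed upwards. The median log2 difference of the members was 2.87, beside -0.02 for all genes tested. In the plot of reads by mouse, 4 of the 8 members have OIR p17 mice that do not overlap the nOIR p17 mice, 3 all above and 1 all below, beside 3.9% and 1.98% of all genes tested.

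**Figure D1:**
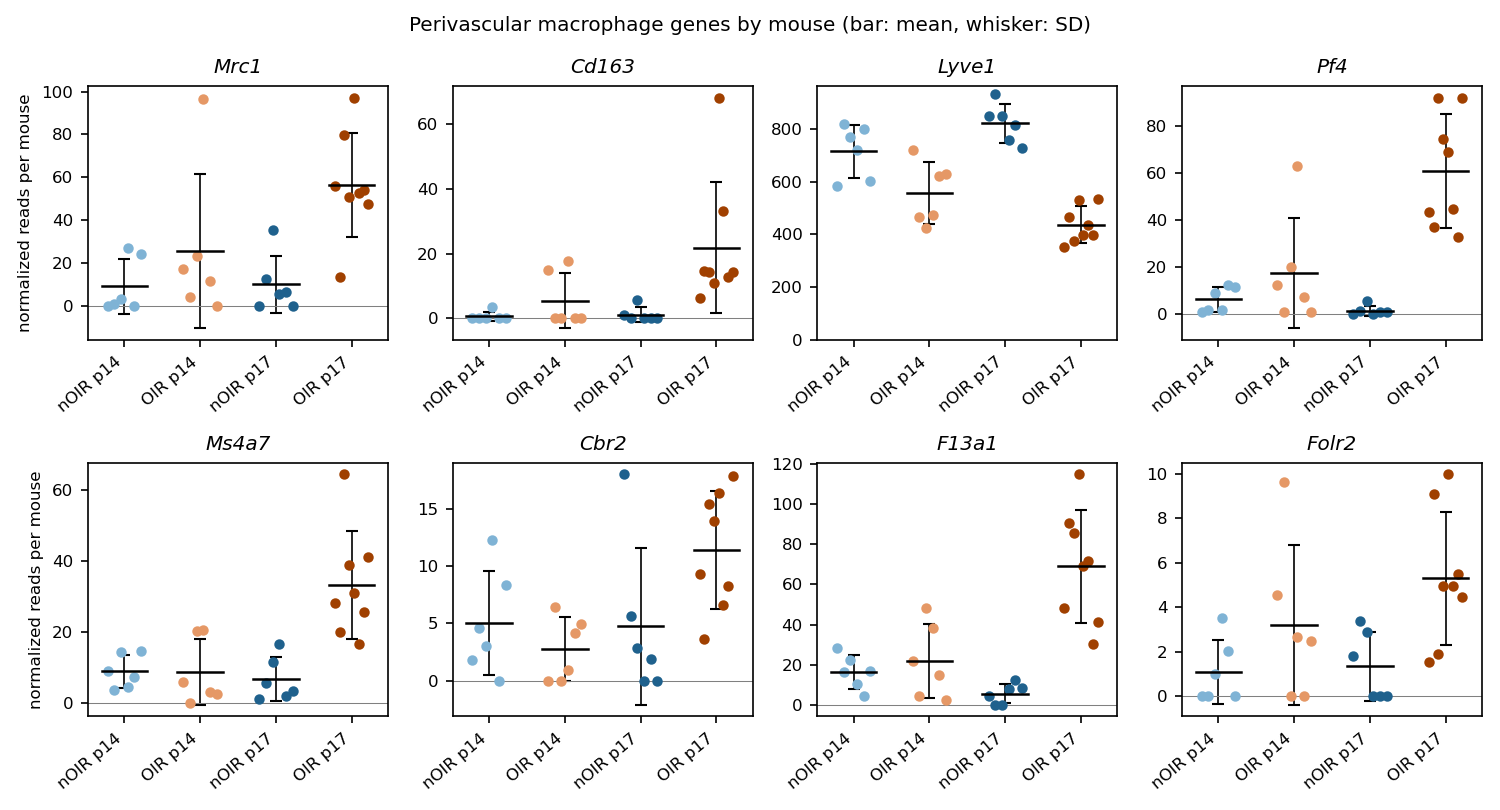
Normalized reads (vertical axis, linear, a separate scale in each panel) of the 8 perivascular macrophage genes in each mouse of the 4 groups, where a point is a mouse, the bar is the mean and the whisker the SD. The OIR p17 mice lie above all nOIR p17 mice for Pf4, F13a1 and Cd163 and below all of them for Lyve1.

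The scavenger receptors come first. Mrc1 encodes the mannose receptor CD206, which takes up glycoproteins and collagen fragments. Its normalized reads were 56.0, 13.6, 79.8, 50.6, 97.2, 52.9, 54.0 and 47.4 in S1 to S8 of OIR p17, and in S1 to S6 of nOIR p17 they were 0, 12.5, 35.5, 5.51, 6.49 and 0. The means were 56.4 ± 24.4 (SD, n = 8) and 10 ± 13.3 (n = 6), a ratio of 5.64, or 11.5 without control mouse S3, which held more reads than the other 5 controls together. All OIR mice but S2 were above every control. The log2 difference was 3.26 (SE 0.90, adjusted p = 0.0129 in limma; exact two-sided permutation p = 0.00133). This call was the least firm of the 5, because it was lost without nOIR p17 mouse S6 (2.77, adjusted p = 0.0514 in limma). It was lost too under edgeR (2.48, adjusted p = 0.0719) and the DESeq2 fit used here (2.50, adjusted p = 0.0981). The study, with its own DESeq2 fit, lists MRC1 among the genes upregulated in both human and mouse retinal neovascularization. The call was also lost with log2 reads of the globin gene Hbb-bs, a measure of blood, as a covariate (2.12, adjusted p = 0.444 in limma).

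Cd163 encodes the receptor through which macrophages clear hemoglobin bound to haptoglobin. It was at 0 in nOIR p17 mice S2, S4, S5 and S6, with 0.90 normalized reads in S1 and 5.76 in S3. OIR p17 mice S1 to S8 had 6.22, 14.5, 14.4, 10.9, 68.2, 33.0, 12.8 and 14.3. Every OIR mouse was above every control, and mouse S5 was far above the rest of its group. The means were 21.8 ± 20.3 (SD, n = 8) and 1.11 ± 2.31 (n = 6), on 7 reads in all in the control group. Since 6 of these came from S3, no ratio is given. The log2 difference was 3.54 (SE 0.69, adjusted p = 0.000395 in limma; 3.26 to 3.97 with single mice left out), and the exact permutation p was 0.000666, the smallest that 8 against 6 mice can give. With the Hbb-bs covariate the call was lost (3.02, adjusted p = 0.0835 in limma). Cd163 owed its place among the genes tested, which needed a mean of 1 normalized read or more, mainly to the OIR groups, since its mean was also low in nOIR p14 retina (0.584 ± 1.43, SD, n = 6).

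Folr2 encodes folate receptor beta, a receptor of resident macrophages. It was the lowest member by reads in OIR p17 retina, at 5.30 ± 2.99 normalized reads (SD, n = 8) in OIR p17 and 1.35 ± 1.56 (n = 6) in nOIR p17 retina. The OIR mice ranged from 1.56 to 10 with a median of 4.96, and the controls from 0 to 3.40 with a median of 0.901. Of the OIR mice, 6 of 8 were above every control. The log2 difference of 1.57 (95% interval 0.44 to 2.69) had an adjusted p of 0.0595 in limma and an exact permutation p of 0.0113. It passed the threshold when nOIR p17 S2 or S3, OIR p14 S2, or OIR p17 S1 or S3 was left out (log2 difference from 1.57 to 1.81, adjusted p from 0.0370 to 0.0465 in limma) or when the fit held the p17 groups alone (adjusted p = 0.0454 in limma).

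Secreted products follow. Pf4 encodes the chemokine platelet factor 4, which binds heparin-like chains. Its nOIR p17 values were 0, 1.13, 5.76, 0, 0.93 and 1.06 normalized reads in S1 to S6, and its OIR p17 values 43.6, 37.2, 92.3, 74.4, 69.1, 44.6, 32.9 and 92.1 in S1 to S8. The lowest OIR mouse was above the highest control. The means of 60.8 ± 24.3 (SD, n = 8) and 1.48 ± 2.16 (n = 6) rested on 9 reads in all in the control group, 6 of them from S3, so that no ratio is given. The log2 difference was 4.87 (SE 0.64, adjusted p = 1.42e-06 in limma; exact permutation p = 0.000666), and it lay between 4.68 and 5.23 with single mice left out.

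F13a1 encodes the A subunit of coagulation factor XIII, the enzyme that crosslinks fibrin. It was at 0 in nOIR p17 mice S2 and S3, and at 4.51, 7.72, 12.1 and 8.50 normalized reads in S1, S4, S5 and S6. OIR p17 mice had 48.2, 90.8, 85.5, 115.1, 69.1, 71.8, 30.2 and 41.2 in S1 to S8. The groups did not overlap. The ratio of the means was 12.6 (69.0 ± 28.3, SD, n = 8, against 5.46 ± 4.87, n = 6), and the log2 difference was 3.92 (SE 0.61, adjusted p = 2.02e-05 in limma; exact permutation p = 0.000666).

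Ms4a7, a membrane protein of the MS4A family, and Cbr2, a carbonyl reductase, are the other genes of resident macrophages. The normalized reads of Ms4a7 were 28, 20, 64.4, 38.7, 30.9, 16.5, 25.6 and 41.2 in S1 to S8 of OIR p17 and 0.90, 5.67, 11.5, 16.5, 1.86 and 3.19 in nOIR p17 mice S1 to S6. All OIR mice but S6 were above the highest control, S4, whose normalized value was nearly that of S6 (16.54 and 16.52). The log2 difference was 2.48 (SE 0.57, adjusted p = 0.00262 in limma; exact permutation p = 0.00133), and the call was lost with the Hbb-bs covariate (1.89, adjusted p = 0.236 in limma). Cbr2 ranged from 3.63 to 17.9 with a median of 11.6 in OIR p17 mice and from 0 to 18 with a median of 2.37 in controls, where mouse S1 held the highest value of both groups. Its log2 difference was 1.76 (95% interval 0.44 to 3.07, adjusted p = 0.0730 in limma; exact permutation p = 0.0226). Without that control mouse it was 2.26 (adjusted p = 0.0147 in limma).

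Lyve1, a hyaluronan receptor, went the other way. Its level was 850.8, 934.0, 847.9, 757.6, 813.6 and 727.7 normalized reads in nOIR p17 mice S1 to S6 and 353.1, 466.7, 375.8, 531.0, 399.0, 436.9, 396.0 and 535.8 in OIR p17 mice S1 to S8. Every OIR mouse was below every control. The log2 difference was -0.92 (SE 0.12, adjusted p = 1.92e-06 in limma; exact permutation p = 0.000666), and the ratio of the means was 0.531 (436.8 ± 69.1, SD, n = 8, against 821.9 ± 73.7, n = 6). It passed the test in the same direction under each scaling tried.

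Lyve1 also differed from the other members in level. Divided by exon length (GENCODE M21 gene models), it had 281.6 normalized reads per kilobase in nOIR p17 retina, where the next were Cbr2 at 3.57, Pf4 at 2.05 and Mrc1 at 1.57. The order from there was Ms4a7 at 1.49, Folr2 at 0.871, F13a1 at 0.811 and Cd163 at 0.203, and these neighbours lay within the spread of the mice. In OIR p17 retina Lyve1 stood at 149.6 and Pf4 at 84.3 per kilobase, followed by F13a1 at 10.2, Mrc1 at 8.86, Cbr2 at 8.60, Ms4a7 at 7.45, Cd163 at 3.99 and Folr2 at 3.43, and from F13a1 on each neighbour in that order lay within the spread of the next. Summed over the 8 genes, the reads had a lower median in OIR p17 mice (546.0 to 839.6, median 698.4) than in nOIR p17 mice (740.5 to 962.4, median 856.9), since Lyve1 makes up most of that sum.

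At p14 no member was called in either direction. Of the genes tested, 3.18% were called higher and 2.91% lower at that age, and at an unadjusted p under 0.05 limma passed 1 member, Lyve1, beside 17% of all genes tested. Neither edgeR nor DESeq2 called a member at p14. The median log2 difference of the members was 0.38, beside 0.02 for all genes. No member had groups that did not overlap, while 1.91% of all genes had every OIR p14 mouse above every control.

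Lyve1 was the nearest to a call at p14. It ranged from 425.5 to 719.3 normalized reads with a median of 546.8 in OIR p14 mice and from 583.4 to 817.4 with a median of 745.3 in nOIR p14 mice. Of the OIR mice, 3 of 6 were below every control. The log2 difference was -0.38 (SE 0.13, adjusted p = 0.0922 in limma; exact permutation p = 0.0368), and it was called without OIR p14 mouse S1 (-0.46, adjusted p = 0.0316 in limma).

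Mrc1 reads came to 17.1, 4.29, 23.2, 96.7, 11.5 and 0 in S1 to S6 of OIR p14, against 0, 0.91, 3.03, 27.2, 0 and 24.1 in nOIR p14 mice S1, S2, S3, S5, S6 and S7. Mouse S4 was the single OIR mouse above every control. It was also the highest of its group for Pf4 (63.0), Cd163 (17.7) and Ms4a7 (20.4). The log2 difference of Mrc1 at p14 was 1.5 (95% interval -0.47 to 3.47, adjusted p = 0.475 in limma), which leaves room for a difference as large as that at p17. It was 0.94 with nOIR p14 mouse S4 included, and leaving out single mice moved it between 0.90 and 2.22 with no call.

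For the other members the p14 differences were 1.01 for Cd163 (95% interval -0.49 to 2.51), 0.80 for Folr2 (-0.41 to 2.00), 0.76 for Pf4 (-0.64 to 2.16), 0.00 for F13a1 (-1.33 to 1.3), -0.58 for Ms4a7 (-1.82 to 0.67) and -0.69 for Cbr2 (-2.10 to 0.71), all on the log2 scale. Cd163 was at 0 in 4 of 6 OIR p14 mice and in 5 of 6 nOIR p14 mice. F13a1 was present in all 12 mice of that age, from 2.47 to 48.4 normalized reads in OIR mice and from 4.07 to 28.4 in controls. Its p14 interval lies below its log2 difference at p17, and so do those of Pf4, Cd163, Ms4a7 and Cbr2. An interval set beside an estimate is not a test of a change between the ages, which follows below.

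**Figure D2:**
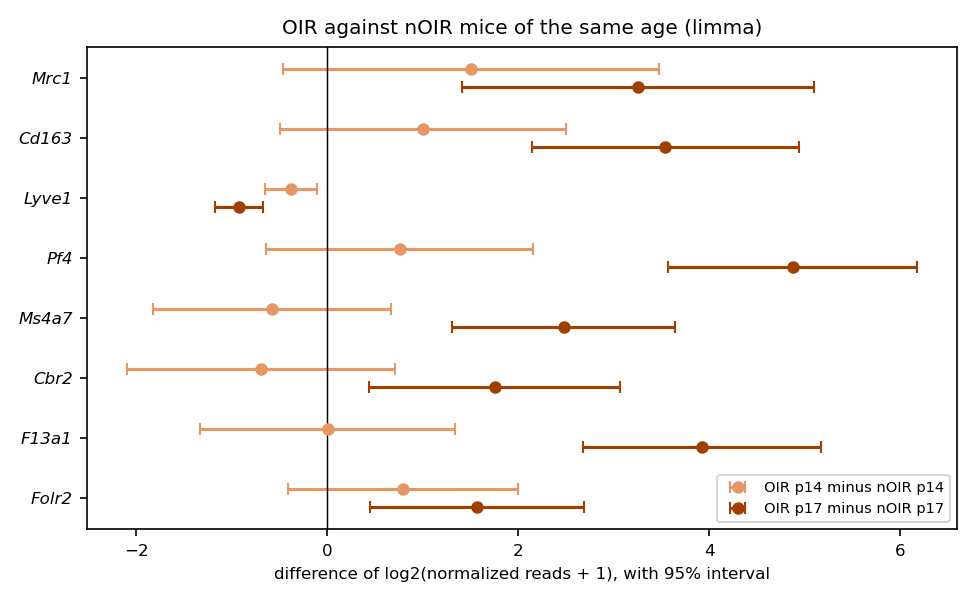
Log2 difference between OIR and nOIR mice (horizontal axis, difference of log2 of normalized reads + 1) of each member at p14 and at p17, where the points are limma estimates and the lines 95% intervals. At p17 Pf4 is farthest to the right at 4.87 and Lyve1 is the only member to the left of 0, while at p14 only the interval of Lyve1 lies wholly on one side of 0.

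A contrast of the same limma model compared the OIR effect at p17 with that at p14. The effect was larger at p17 for Pf4, by 4.12 on the log2 scale (SE 0.94, adjusted p = 0.0151 in limma), and for F13a1, by 3.92 (SE 0.89, adjusted p = 0.0151). Of all genes, 1.43% were called in this direction. Ms4a7 was just outside the threshold (3.05, SE 0.83, adjusted p = 0.0585 in limma). It was called without nOIR p17 S3, nOIR p17 S4, OIR p14 S3 or OIR p14 S4 (adjusted p from 0.0201 to 0.0449 in limma). It was also called with the mouse number as a replicate block (3.13, adjusted p = 0.0197 in limma), although that number does not pair the mice. Further settings that gave 3 members called for this contrast are listed in the last section. For the rest the estimates were 2.54 for Cd163 (95% interval 0.48 to 4.59), 2.45 for Cbr2 (0.53 to 4.38), 1.76 for Mrc1 (-0.94 to 4.45), 0.77 for Folr2 (-0.87 to 2.42) and -0.54 for Lyve1 (-0.91 to -0.17), none of which passed the adjustment over all genes. For Pf4 the call was lost under edgeR (3.71, adjusted p = 0.101). Both calls were lost with log2 Hbb-bs as a covariate (3.33, adjusted p = 0.391 for Pf4, and 4.01, adjusted p = 0.146 for F13a1, in limma) and at a threshold of 0.01. With that covariate 124 of all genes tested were called in this direction, against 389 without it.

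In control retina no member was called between p14 and p17 in limma, where 0.158% of genes were called higher and 0.158% lower. At an unadjusted p under 0.05 limma passed 2 members, both lower at p17, beside 7.37% of all genes, and neither edgeR nor DESeq2 called one. These were F13a1, with a mean of 16.4 ± 8.55 normalized reads at p14 and 5.46 ± 4.87 at p17 (SD, n = 6 each, log2 difference -1.84, 95% interval -3.17 to -0.50, adjusted p = 0.358 in limma), and Pf4, with 6.22 ± 5.29 and 1.48 ± 2.16 (log2 difference -1.46, 95% interval -2.86 to -0.06, adjusted p = 0.656 in limma).

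In OIR retina 4 members were called higher at p17 than at p14, against 4.11% of all genes. They were Cd163 (2.79, adjusted p = 0.0107), Pf4 (2.66, adjusted p = 0.00905), Ms4a7 (2.41, adjusted p = 0.00790) and F13a1 (2.08, adjusted p = 0.0366), all as log2 differences in limma. The groups overlapped for all 8 members, with mouse S4 of OIR p14 within the p17 range of Mrc1, Cd163, Pf4 and Ms4a7. Under edgeR none of the 4 was called and under DESeq2 2 of them were. Over all genes tested, 1099 were called higher under edgeR and 1402 under DESeq2, beside 1114 in limma. F13a1 lost its call in limma without any one of 8 mice, with the log2 differences left in brackets. These mice were OIR p14 S2 (1.78), S5 (2.09) and S6 (1.66) and OIR p17 S2 (2.01), S3 (2.02), S4 (1.96), S5 (2.07) and S6 (2.06). Red cell genes rose in the same comparison, 5 of 7 with a median of 3.72, from a sum of 214.6 to 850.0 normalized reads in OIR p14 to one of 1232 to 16998 in OIR p17 mice, and with the Hbb-bs covariate 0 of the 4 members were called (log2 differences from 1.77 to 2.21, adjusted p from 0.395 to 0.531 in limma). Over all 27137 genes tested, that covariate took the calls higher in this comparison from 1114 to 191. Cbr2 had a log2 difference of 2.04 (adjusted p = 0.0566), Mrc1 2.11 (adjusted p = 0.193), Folr2 0.91 (adjusted p = 0.403) and Lyve1 -0.34 (adjusted p = 0.116). Cbr2 was called without any one of nOIR p14 S6, nOIR p17 S1, nOIR p17 S4, OIR p14 S2 or OIR p17 S2. Its adjusted p was then 0.0354 to 0.0497 in limma. The comparisons share groups with one another, so their values stand side by side here and are not set against each other.

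Set against Csf1r, the growth factor receptor of all macrophages and microglia, Pf4 and F13a1 stood higher at p17 and Lyve1 lower. Csf1r itself had 766.9 ± 114.9 normalized reads (SD, n = 8) in OIR p17 and 392.5 ± 71.4 (n = 6) in nOIR p17 retina, a log2 difference of 0.97 (adjusted p = 1.65e-05 in limma). This was the smallest difference of the 16 called genes that macrophages and microglia share, whose list had a median of 1.92, above the differences of Cbr2 and Folr2, so a share of Csf1r reads favours the members more than a share of most of those genes would. Pf4 reads came to between 4.09% and 13.6% of the Csf1r reads of the same mouse in OIR p17 (median 7.84%) and to between 0% and 1.97% in nOIR p17 mice (median 0.235%). F13a1 ranged from 3.75% to 13.4% in OIR and from 0% to 3.57% in controls, and again no mouse overlapped. Mrc1 had medians of 6.76% and 1.63% with overlapping ranges (2.01% to 12.9% and 0% to 12.2%). In OIR p17 and nOIR p17 mice the medians were 1.86% and 0% for Cd163 and 4.19% and 0.951% for Ms4a7. They were 1.56% and 0.768% for Cbr2 and 0.603% and 0.239% for Folr2, and the ranges of Cd163, Ms4a7, Cbr2 and Folr2 overlapped as well. Lyve1 ranged from 49.2% to 68.9% in OIR p17 and from 152.2% to 290.5% in nOIR p17 mice. These are shares of reads, not of cells, and were not tested.

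**Figure D3:**
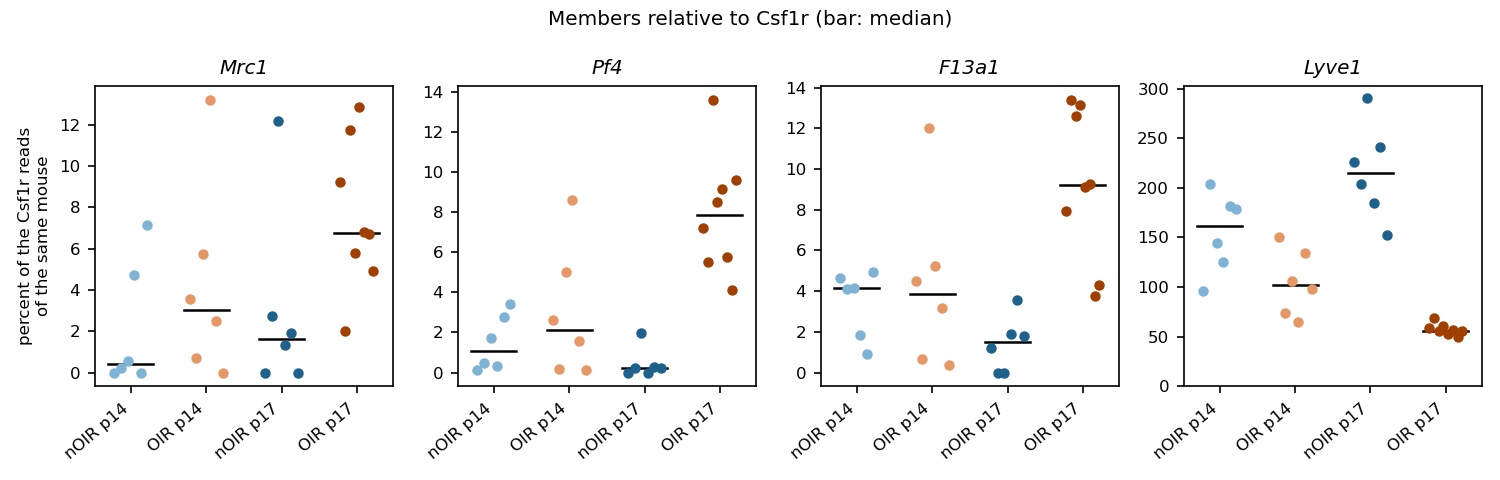
Reads of Mrc1, Pf4, F13a1 and Lyve1 as a percent of the Csf1r reads of the same mouse (vertical axis, linear, a separate scale in each panel) in the 4 groups, where a point is a mouse and the bar the median. For Pf4 and F13a1 all OIR p17 mice lie above all nOIR p17 mice, and for Lyve1 all lie below.

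Other genes of border-associated macrophages were also higher at p17. Of 20 listed, 18 were tested and 10 rose, with none lower and a median log2 difference of 1.70. Of these, Cd209f, Ccl8 and Wfdc17 reached a mean of 1 normalized read only with the OIR p17 mice and so could hardly enter without rising, and of the other 15 genes 7 rose. The largest difference was that of Clec4n, the C-type lectin Dectin-2 (4.02, adjusted p = 0.000179 in limma), and the lowest that of Clec10a, another lectin (-1.22, adjusted p = 0.130). Among the genes shared by macrophages and microglia, 16 of 17 rose, from Csf1r at 0.97 to Spi1, which encodes PU.1, at 3.03 (adjusted p = 6.06e-07), with a median of 1.92. Of 9 genes that set microglia apart, 2 rose, with Fcrls the highest at 2.98, and the median was 0.48. Siglech was the lowest of these at -0.33 (adjusted p = 0.602). At p14 the counts were 0 higher and 2 lower of 18 border-associated genes, 5 higher of 17 shared genes and 0 of 9 microglia genes.

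Ligands and growth factors that act on macrophages were listed as well. Of 8 tested at p17, 3 rose, namely the monocyte chemokine Ccl2 (5.55, adjusted p = 1.13e-09), the transforming growth factor Tgfb1 (1.95) and Csf1, a ligand of Csf1r (1.17), and Hgf, hepatocyte growth factor, fell (-0.93, adjusted p = 0.00867 in limma). The median was 0.13. At p14, 2 of these 8 were higher, again Ccl2 (5.56, adjusted p = 3.61e-08 in limma) and Csf1 (1.12, adjusted p = 0.00153 in limma).

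Markers of other cells that make these genes or carry blood were read beside the members. Of 7 platelet and megakaryocyte genes tested, 0 were called at p17 (median 0.15), and their summed reads were 72.2 to 134.5 in nOIR p17 and 104.2 to 193.6 in OIR p17 mice, most of them from Itga2b. Ppbp, a defining platelet chemokine gene, was at 0 in 3 of 8 OIR p17 mice and no higher than 4.67 normalized reads in any of them, and Tubb1 was at 0 in 5 of 8. In nOIR p17 mice Ppbp was at 0 in 5 of 6 (mean 0.309, against 1.58 in OIR p17) and Tubb1 in 6 of 6 (mean 0, against 1.23). Neither reached the mean of 1 normalized read needed for the test, so both are outside the 7 genes tested. Lymphatic endothelial genes were mixed, with 3 of 5 higher, namely Mmrn1 (2.54, adjusted p = 0.0465 in limma), Pdpn (0.85) and Flt4 (0.61), and Prox1 lower (-0.49), from a sum of 6463 to 7890 in nOIR p17 and 5089 to 7504 in OIR p17 mice. Mmrn1, which was at 0 in 5 of 6 controls, reached 37.2 normalized reads in OIR p17 mice. Ccl21a, a defining lymphatic gene that was not called, stayed between 0 and 5.41 normalized reads at p17, and Prox1, which neurons and glia of the retina also express, had 6175 ± 657 (SD, n = 6) in controls. Of 6 monocyte genes 4 rose, Plac8 most at 2.83 and Vcan least at 0.25 (adjusted p = 0.706), and of 5 neutrophil genes 1 rose, S100a8 at 2.03. All of these 4 monocyte genes and S100a8 reached a mean of 1 normalized read only with the OIR p17 mice. Monocyte reads summed to between 48.9 and 112.2 in nOIR p17 and between 88.6 and 180.0 in OIR p17 mice, on average most of them from Vcan (means of 68.3 and 83.1), which was not called.

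Red cell genes rose with the members in spite of the perfusion. Of 7, 5 were higher at p17 (median 2.99), and their sum was 194.7 to 1194 normalized reads in nOIR p17 and 1232 to 16998 in OIR p17 mice, without overlap. Hbb-bs, a beta globin, was higher by 3.39 on the log2 scale. With log2 Hbb-bs as a covariate, 2 of the 5 members were still called higher at p17, namely Pf4 (4.07, adjusted p = 0.00614 in limma) and F13a1 (4.02, adjusted p = 0.00563), and Lyve1 was still called lower (-0.79, adjusted p = 0.00571). Cd163, Mrc1 and Ms4a7 were not, at the values given with each gene. Over all 27137 genes tested, the Hbb-bs covariate took the calls at p17 from 2005 to 981 higher and from 1390 to 451 lower. Hbb-bs itself separates the p17 groups, so blood and treatment cannot be told apart by that fit.

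Fibroblast genes moved as well, with 4 of 6 higher at p17 (median 2.02, Col1a1 most at 4.25 and Pdgfra least at 0.82) and a sum of 696.2 to 1190 in nOIR p17 and 2162 to 5176 in OIR p17 mice. With log2 of the fibroblast gene Dcn as a covariate, 4 members stayed higher and Mrc1 lost its call (2.81, adjusted p = 0.0808 in limma). Over all genes tested, 1687 were called higher at p17 with the Dcn covariate, against 2005 without it. Of 7 blood endothelial genes 5 rose, with Erg at 2.35 the largest and Kdr at 0.20 the smallest difference. Lens genes, which enter a retina through dissection, were called in 0 of 7 cases at p17 but varied widely, from a sum of 253.9 to 10298 in nOIR p17 and 301.8 to 30962 in OIR p17 mice. Without the mice with the most Cryaa, nOIR p14 S5 and OIR p17 S2, S7 and S8, the 5 members kept their calls, with log2 differences from 2.56 for Ms4a7 to 5.01 for Pf4. Pigment epithelium genes were called in 0 of 8 cases (median -0.16), and of 12 genes of retinal neurons and glia 7 fell (median -0.37). The part of blood and fibroblast RNA in the members' results was not tested beyond these fits.

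**Figure D4:**
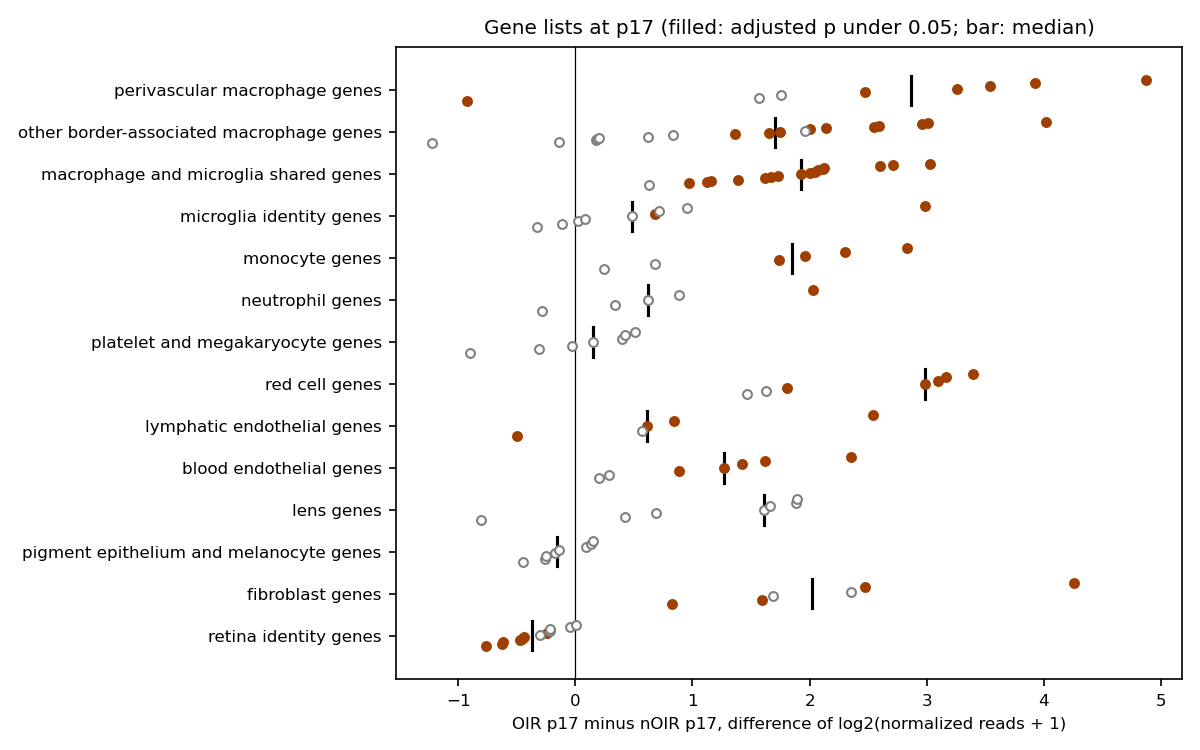
Log2 difference between OIR p17 and nOIR p17 mice (horizontal axis, difference of log2 of normalized reads + 1) for each tested gene of 14 lists, where filled points passed an adjusted p under 0.05 in limma and bars mark the median of a list. The perivascular macrophage genes have a median of 2.87 with Lyve1 apart at -0.92, red cell genes one of 2.99 and platelet genes one of 0.15.

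Within groups the members varied together only in part. As deviations of the log2 values from the group mean over 26 mice, Pf4 and Ms4a7 had the highest correlation (Pearson's r = 0.704, Spearman's rank correlation = 0.693, r = 0.656 without the 2 mice farthest from the median), followed by Mrc1 with Pf4 (r = 0.612, rank correlation 0.517), Mrc1 with Ms4a7 (r = 0.540, rank correlation 0.556) and Mrc1 with Cd163 (r = 0.523, rank correlation 0.318). Without the 2 farthest mice these 3 came to r = 0.428, 0.458 and 0.378. Over the 21 pairs without Lyve1 the median was 0.110 and the range -0.561 to 0.704, with 14 of them above 0. The lowest was F13a1 with Folr2 (rank correlation -0.477), and F13a1 with Mrc1 had r = 0.087. Over the 7 pairs with Lyve1 the median was -0.016. The mice share depth, dissection and low read counts for these genes, so the values describe these libraries. Ranked by r among the 19004 genes averaging 10 or more normalized reads, the first 5 beside Mrc1 were Gm17529 (r = 0.716), the chemokine receptor Ccr1 (r = 0.703), the myeloid adaptor Tyrobp (r = 0.698), Rpl37rt (r = 0.696) and Ociad2 (r = 0.695). As the highest of so many values over 26 mice they give a ranking in these libraries, and none was tested. Of the 5, Ccr1 (3.84) and Tyrobp (2.00) had large log2 differences at p17, while Gm17529 (0.20), Rpl37rt (0.17) and Ociad2 (-0.23) had small ones.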

How the data were processed

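Retinal RNA of 27 mice was sequenced by the authors, who mapped reads with STAR 2.7.8a, counted them on GENCODE M28 genes with featureCounts 2.0.1 and divided each mouse's counts by a DESeq2 1.34 size factor (versions from the submitters' processing notes). The deposited signal is thus normalized reads, with a depth of 17029536 to 33593428 reads per mouse. The same deposited table lists the authors' group means, log2 fold changes and adjusted p-values, which were not used. Values were whole multiples of a step per mouse, so that 100% came out as whole reads within 0.01.

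Groups followed treatment and age, without nOIR p14 mouse S4 (26 mice). Limma 3.58.1 in R 4.3.3, with a trend, was fitted to log2(normalized reads + 1) of the 27137 genes with a mean of at least 1, with p-values adjusted by Benjamini-Hochberg and an adjusted p under 0.05 as the call. All 8 members passed that filter. Fold changes are on this scale, where the pseudocount shrinks the change of low genes, and as differences of mean log2 values they can also exceed the ratio of the means. Exact permutation tests (two-sided, difference of mean log2 values) used scipy 1.17.1 in Python 3.11.15. Alternatives were other pseudocounts, filters, scalings and fits, edgeR 4.0.16 and DESeq2 1.42.0 on recovered reads, a replicate block, leaving out mice, and log2 Cryaa as a covariate. Covariates of Hbb-bs and Dcn, and leaving out the 4 mice with the most Cryaa, were added after seeing the data. Limma was tested on simulated data. All members are named, and of other lists the genes with the highest and lowest p17 difference and those a result turns on. The members and lists were chosen with earlier results of these data known. Some genes of the other lists are counted but not reported by name here.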

Additional observations from a re-analysis of the deposited data

Results flagged for a closer look

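Mrc1 in OIR p17 mouse S2 was 13.6 normalized reads, far below the other 7 mice of its group. Cd163 was 3.50 in nOIR p14 mouse S5 and 5.76 in nOIR p17 mouse S3, far above the rest of groups that were mostly at 0. These are 3 of 32 groups of values checked, and chance alone marks about 1 in 20 groups of normally spread values. In groups mostly at 0 that share does not hold, since nearly any mouse above 0 stands out there. The effect of OIR differed between the ages for Pf4 (4.12 more at p17 than at p14 on the log2 scale, adjusted p = 0.0151 in limma) and for F13a1 (3.92, adjusted p = 0.0151 in limma). Mouse S4 of nOIR p14, which was left out of the tests, had 64.5 normalized reads of Mrc1 and 7.93 of Folr2, both above every other nOIR mouse of either age. The study had left this mouse out for contamination with lens genes.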

How the results depend on the processing

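No alternative turned the direction of a called member. Of 577 values of single members under settings other than leaving out a mouse, 543 kept their side of the threshold, 25 lost and 9 gained a call. At p17 the count of members called higher was 5, and 2 with log2 Hbb-bs as a covariate. It was 4 under edgeR, DESeq2, the Dcn covariate and an adjusted p under 0.01 (each without Mrc1) and with a filter at a mean of 10 (which removes Cd163), and 6 with the p17 groups alone in the fit. For the change of the effect between ages it was 2, and it became 1 under edgeR, 0 with the Hbb-bs covariate and 0 at an adjusted p under 0.01. It was 3 with a pseudocount of 5, a filter at a mean of 10, nOIR p14 mouse S4 included or the Cryaa covariate. For OIR mice from p14 to p17 it was 4, and it became 0 under edgeR, 2 under DESeq2, 0 with the Hbb-bs covariate and 2 at an adjusted p under 0.01. Under the other settings it was 3 to 5. Over all genes tested, the Hbb-bs covariate took the calls higher at p17 from 2005 to 981. For the change between ages they went from 389 to 124, and over time in OIR mice from 1114 to 191. EdgeR called 2050 of all genes higher at p17, 380 for the change between ages and 1099 over time in OIR mice. For DESeq2 these counts were 2286, 597 and 1402. Where no value is given for a cause, the cause was not tested. Leaving out a mouse gave 0 to 1 members called lower at p14, 4 to 6 higher at p17, 2 to 3 for the change between ages and 3 to 5 for OIR mice over time. Mice of the same number in different groups did not deviate together (median r of 0.003 over 34 pairs, against -0.001 over 218 other pairs), so the number does not pair them. With the replicate block the members called higher were 5 at p17, 3 for the change between ages and 4 over time in OIR mice, where Ms4a7 was the member gained. Scaling to the same total moved the median of all genes at p17 from -0.02 to 0.04. Depth limits the low members: Cd163 had 7 reads and Pf4 9 reads over all nOIR p17 mice, and control mice at 0 may hold up to 3 reads. Which mice shared a litter, and whether a library held 1 or both retinas, was not known and was not modelled.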
